A study of Mus musculus with 8 samples.

Results

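The 10 genes described here encode MHC class I of the mouse and the machinery that supplies it with peptides: the light chain B2m, the heavy chains H2-K1, H2-D1 and H2-T23, the peptide transporter subunits Tap1 and Tap2, the loading factor Tapbp, the immunoproteasome subunits Psmb8 and Psmb9, and the transcriptional activator Nlrc5. They were taken by name from the 45706 genes of the deposited tables, and all 10 were found and passed the filter on low counts that kept 14006 genes for testing. RNA was sequenced in bulk from natural killer (NK) cells of BALB/c mice, whose age is not given in the labels. Every mouse had received CT26_β2m-/- cells under the skin. CT26 is a mouse colorectal carcinoma line, and the deletion of the β2-microglobulin gene keeps MHC class I off the surface of the injected cells. The deletion is in the tumour line and not in the mouse, so neither group of NK cells is a B2m knockout. The groups were 4 libraries titled tuNK (tumour-infiltrating NK cells) and 4 titled spNK (splenic NK cells), numbered 1 to 4 as in the titles. For each of the 8 samples the title disagrees with its other labels: those titled tuNK are tagged as spleen, and those titled spNK as tumour. Groups and directions here follow the titles. The labels do not say whether replicates came from separate mice, so p-values cover only the spread among these libraries, which may be technical.

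MHC class I is a heavy chain paired with β2-microglobulin that carries a short peptide from the cell's own proteins to the cell surface. Proteasomes cut the peptides in the cytosol, the TAP transporter moves them into the endoplasmic reticulum, and tapasin (Tapbp) helps to load them. Interferon γ replaces catalytic subunits of the proteasome by the inducible immunosubunits and raises the whole pathway through factors that include Irf1 and Nlrc5. NK cells use class I in both roles: they carry inhibitory receptors that read class I on other cells, so that cells without it can be killed, and they carry class I themselves. Most nucleated cells make class I, and RNA of these genes is therefore not particular to NK cells.

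Upstream sequences are shown for the light chain, the 3 heavy chains and Tap1, because the heavy chain promoters are the known meeting point of the NF-κB, interferon and Nlrc5 inputs and because H2-K1 and H2-D1 showed similar fold changes. Each is the 250 bases before the start of the gene in RefSeq (GRCm38.p6, the C57BL/6 genome), written 5′ to 3′ on the strand of the gene. Capitals mark matches on either strand to 4 short motifs: the IRF core AANNGAAA, the NF-κB core GGGNNTTCC, the CRE-type core TGACG and the CCAAT box.
B2m, chr2:122147437-122147686, plus strand: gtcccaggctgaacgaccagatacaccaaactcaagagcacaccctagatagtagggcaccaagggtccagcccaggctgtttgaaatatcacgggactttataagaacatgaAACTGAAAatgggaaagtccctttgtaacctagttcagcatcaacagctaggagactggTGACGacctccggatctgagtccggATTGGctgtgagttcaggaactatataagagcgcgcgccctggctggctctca
H2-K1, chr17:34000348-34000597, minus strand: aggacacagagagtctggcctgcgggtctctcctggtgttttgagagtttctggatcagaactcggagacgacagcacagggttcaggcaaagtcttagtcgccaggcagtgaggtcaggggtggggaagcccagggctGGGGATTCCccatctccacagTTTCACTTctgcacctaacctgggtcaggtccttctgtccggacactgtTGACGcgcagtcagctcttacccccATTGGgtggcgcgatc
H2-D1, chr17:35262844-35263093, plus strand: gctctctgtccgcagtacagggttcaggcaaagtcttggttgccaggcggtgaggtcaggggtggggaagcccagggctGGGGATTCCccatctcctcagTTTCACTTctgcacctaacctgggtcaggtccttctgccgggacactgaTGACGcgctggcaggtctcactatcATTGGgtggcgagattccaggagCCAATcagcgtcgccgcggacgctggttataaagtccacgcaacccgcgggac
H2-T23, chr17:36032702-36032951, minus strand: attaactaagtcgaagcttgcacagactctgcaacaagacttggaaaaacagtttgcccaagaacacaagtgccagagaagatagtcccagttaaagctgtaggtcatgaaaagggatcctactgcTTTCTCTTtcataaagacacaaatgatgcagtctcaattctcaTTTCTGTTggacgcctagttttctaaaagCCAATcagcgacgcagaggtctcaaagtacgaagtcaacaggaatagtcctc
Tap1, chr17:34187306-34187555, plus strand: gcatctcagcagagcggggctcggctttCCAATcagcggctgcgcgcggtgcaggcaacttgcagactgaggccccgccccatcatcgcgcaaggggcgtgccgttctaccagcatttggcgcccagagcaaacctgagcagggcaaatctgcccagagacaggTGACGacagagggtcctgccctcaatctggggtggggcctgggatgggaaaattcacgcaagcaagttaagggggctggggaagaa

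Promoters of 8 of the 10 genes were in the RefSeq table, all but Tap2 and Nlrc5. The windows of H2-K1 and H2-D1 aligned over 177 positions, of which 161 (91.0%) were identical, and both carry the 4 motifs in the same order, H2-D1 with a further CCAAT match. In the windows printed, no match overlaps another. The IRF core was found in 4 of the 8 windows and in 21.6% of all 27025 windows of this length. The NF-κB core was found in 2 of the 8, those of H2-K1 and H2-D1, and in 4.88% of all windows. The TGACG core was found in 5 of the 8 and in 17.9% of all windows, and CCAAT in 7 of the 8 and in 34.5% of all windows. The H2-T23 window holds 2 IRF matches and a CCAAT box and no match to the NF-κB core. Tap1 and Psmb9 are transcribed away from each other, and 225 bases of their 2 windows are the same DNA. Their TGACG and CCAAT matches are the same sites, counted once for each gene in the counts above. A match is a description of the letters and is not a measured binding site, and the windows are those of C57BL/6 and not of BALB/c. The gene positions printed below are from GENCODE, which starts several of these genes further upstream than RefSeq. By those positions the windows of H2-D1, Tapbp, Psmb8 and Psmb9 lie inside the gene. The windows of B2m, H2-T23 and Tap1 reach into it. The motif counts hold for the RefSeq starts alone.

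All 10 genes were expressed in all 8 libraries. Library totals ran from 38745733 to 45404059 estimated counts in tuNK and from 40560781 to 53886933 in spNK. The groups differed in most genes, since 9744 of 14006 (69.6%) passed an adjusted p of 0.05, 4983 (35.6%) of them higher in tuNK and 4761 (34%) lower. RNA of cells other than NK cells moved with the groups. All 12 markers of fibroblasts or mesenchymal tumour cells were higher in tuNK, with a summed level of 3240 to 4896 counts per 1000000 (CPM) in tuNK and 95.8 to 161 CPM in spNK. All 10 NK cell markers were lower in tuNK, with sums of 3399 to 4854 CPM in tuNK and 11128 to 16097 CPM in spNK. Of 10 macrophage and monocyte markers, 2 were higher and 3 lower, with sums of 97.9 to 119 CPM in tuNK and 476 to 579 CPM in spNK. Single markers went both ways. Cd14 averaged 60.3 CPM in tuNK and 0.280 CPM in spNK, and Mrc1 3.67 CPM in tuNK and 0.400 CPM in spNK. Lyz2 averaged 2.16 CPM in tuNK and 96.3 CPM in spNK, and Csf1r 0.0835 CPM in tuNK and 2.83 CPM in spNK. Most of the spNK sum was Itgam, which NK cells also express (31.0 CPM in tuNK, 418 CPM in spNK). Of 8 dendritic cell markers, 0 were higher and 7 lower, with sums of 102 to 125 CPM in tuNK and 396 to 650 CPM in spNK. The largest part was Itgax, with means of 68.6 CPM in tuNK and 220 CPM in spNK. Xcr1 and Clec9a averaged 0.606 and 0.158 CPM in tuNK, and 3.83 CPM each in spNK. Of 7 epithelial tumour markers, 4 were higher and 0 lower, with sums of 47.7 to 68.7 CPM in tuNK and 1.22 to 10.04 CPM in spNK. The largest part in tuNK was Krt18, with means of 31.2 CPM in tuNK and 1.63 CPM in spNK. Epcam averaged 0.761 CPM in tuNK and 0.292 CPM in spNK, and Cdh1 0.729 CPM in tuNK and 1.71 CPM in spNK. Erythroid markers summed to 0.362 to 1.94 CPM in tuNK and 147 to 638 CPM in spNK, platelet markers to 5.35 to 7.50 CPM in tuNK and 303 to 544 CPM in spNK, and neutrophil markers to 0.0699 to 0.660 CPM in tuNK and 34.4 to 131 CPM in spNK. The B cell marker Ms4a1 was at 0 in every tuNK library, and the mesenchymal marker Lum was at 0 in every spNK library. The part of these cells in the class I values was not tested. In bulk RNA, fewer cells of a type and less RNA per cell cannot be told apart.

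The 3 heavy chains were lower in tuNK while the light chain and the peptide transporter were not called. On counts scaled by TMM (a trimmed mean over all genes, which takes most genes as level), 4 of the 10 genes were lower in tuNK, 0 were higher and 6 did not pass the test. Among all genes tested 34% were lower and 69.6% passed in either direction, so 4 of 10 lower is near the background and is no mark of these genes. The 4 were the heavy chains H2-T23, H2-K1 and H2-D1 and the immunoproteasome subunit Psmb8. The light chain B2m, both TAP subunits, Tapbp, Psmb9 and Nlrc5 were not called. The median log2 fold change (tuNK minus spNK) of the 10 was -0.22, against 0.02 over all genes tested.

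Scaling set the direction. When each library was scaled to 32 genes expressed across leukocytes, all 10 genes were called higher in tuNK, with log2 fold changes between 0.99 (H2-T23) and 2.04 (Tap1) and a median of 1.51. On that scale the median of all genes was 1.75, 78.8% of them were called higher and 6.1% were called lower, so the median of the 10 genes lay below that of all genes there too. The 32 leukocyte genes took 0.462 to 0.626% of the counts in tuNK and 1.76 to 2.22% in spNK. The 10 class I genes took 0.672 to 0.974% of the counts in tuNK and 0.942 to 1.21% in spNK. These shares overlapped, with tuNK 1 above spNK 3, and were not tested. Below, "higher" and "lower" refer to the TMM scale unless the leukocyte scale is named.

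**Figure D1:**
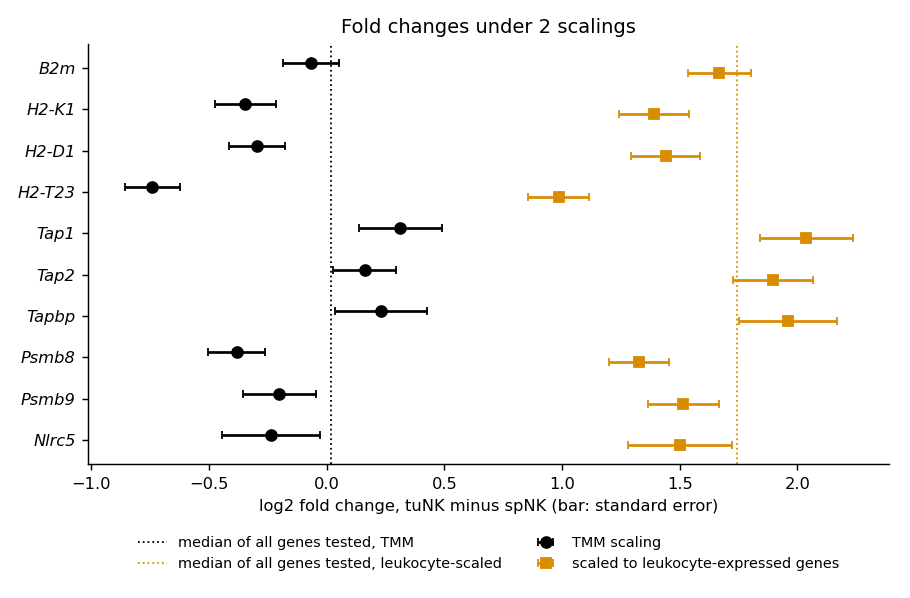
Log2 fold change (tuNK minus spNK, x axis) of each of the 10 genes under TMM scaling (black circles) and under scaling to 32 leukocyte-expressed genes (orange squares), with bars of 1 standard error and dotted lines at the median of all genes tested. The TMM values run from -0.74 for H2-T23 to 0.31 for Tap1, and on the leukocyte scale every gene lies to the right of 0, from 0.99 to 2.04.

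B2m (ENSMUSG00000060802, chromosome 2, 122147686 to 122153083, GRCm38), the light chain shared by all classical class I molecules, was not called. It had 1985, 2165, 1726 and 1861 CPM in tuNK 1 to 4, against 2343, 2159.6, 1694 and 1908 CPM in spNK 1 to 4. The groups overlapped throughout, with the lowest library of all in spNK and the highest too. The log2 fold change was -0.07 ± 0.12 (SE, edgeR quasi-likelihood adjusted p = 0.632), which does not show that the levels were equal. Per transcript length, as transcripts per 1000000 (TPM), B2m averaged 2773 ± 443 TPM in tuNK and 3434 ± 527 TPM in spNK (SD, n = 4 each), the highest TPM of the 10 genes in both groups. Against Ptprc, the pan-leukocyte CD45 gene, B2m stood at a TPM ratio of 24.7, 27.5, 33.5 and 26.1 in tuNK, against 7.82, 8.14, 8.98 and 8.29 in spNK. The groups did not overlap in that ratio, and Ptprc itself fell by 1.79 on the log2 scale (408 ± 78.7 CPM in tuNK, 1412 ± 273 CPM in spNK; edgeR adjusted p = 6.82e-06). A gene level on the TMM scale would therefore also stand higher against Ptprc in tuNK. On the leukocyte scale B2m was 1.67 log2 units higher in tuNK (edgeR adjusted p = 2.85e-07).

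The classical heavy chains H2-K1 and H2-D1, which present peptides to CD8 T cells and are read by Ly49 receptors of NK cells, were both slightly lower in tuNK. H2-K1 (ENSMUSG00000061232, chromosome 17, 33996017 to 34000347) had 1941, 1834, 1420.3 and 1587 CPM in tuNK 1 to 4, against 2378, 2406, 1790.4 and 2044 CPM in spNK 1 to 4. H2-D1 (ENSMUSG00000073411, chromosome 17, 35262730 to 35267499) had 3920.2, 3710.1, 2983 and 3333 CPM in tuNK, against 4755, 4628, 3680.5 and 4056 CPM in spNK. In both genes the groups overlapped: tuNK 1 and tuNK 2 lay above spNK 3, the lowest spNK library. The log2 fold changes were -0.35 ± 0.13 for H2-K1 (edgeR adjusted p = 0.0342) and -0.30 ± 0.12 for H2-D1 (edgeR adjusted p = 0.0461). With replicate number as a block, the edgeR adjusted p was 0.00296 for H2-K1 and 0.00636 for H2-D1. Whether the numbers pair the samples is not known. Without the block both calls sat near the threshold, and single libraries decided them. Without tuNK 3, tuNK 4, spNK 1 or spNK 2 neither gene passed (edgeR adjusted p of 0.0803 to 0.0954 for H2-K1 and 0.105 to 0.117 for H2-D1), and without tuNK 2 or spNK 4 H2-D1 alone was lost (0.0572 and 0.0559). In the 3 heavy chain genes the tables carry a further limit, since BALB/c has the d haplotype of the MHC and the reference genome the b haplotype, and how far reads of BALB/c class I genes were placed on the right gene was not tested. In the reference, 5.89% of the read-length stretches of H2-K1 and 8.14% of those of H2-D1 occur in transcripts of other genes.

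H2-T23 had the largest fold change of the 10 on the TMM scale. It encodes the heavy chain of Qa-1, a nonclassical class I molecule whose best known ligand role is for the inhibitory CD94/NKG2A receptor of NK cells. H2-T23 (ENSMUSG00000067212, chromosome 17, 36029773 to 36032855) had 246, 250.4, 181 and 228 CPM in tuNK 1 to 4, against 417, 398, 328 and 369 CPM in spNK 1 to 4. All 4 tuNK libraries lay below all 4 spNK libraries. Its mean was 226 ± 31.8 CPM in tuNK and 378 ± 38.7 CPM in spNK (SD, n = 4 each), a fold of 0.598 and a log2 fold change of -0.74 ± 0.12 (edgeR adjusted p = 0.000214). It stayed lower when any 1 library was left out, with log2 fold changes between -0.81 and -0.66. On the leukocyte scale it was higher in tuNK like the others, by 0.99, the smallest value of the 10. H2-T23 shares 9.83% of its read-length stretches with other genes' transcripts. Of the 10 genes, H2-T23 and Psmb8 had groups that did not overlap in CPM, both lower in tuNK. Over all genes tested, 32.7% did not overlap and were lower, and 67.1% did not overlap in either direction.

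**Figure D2:**
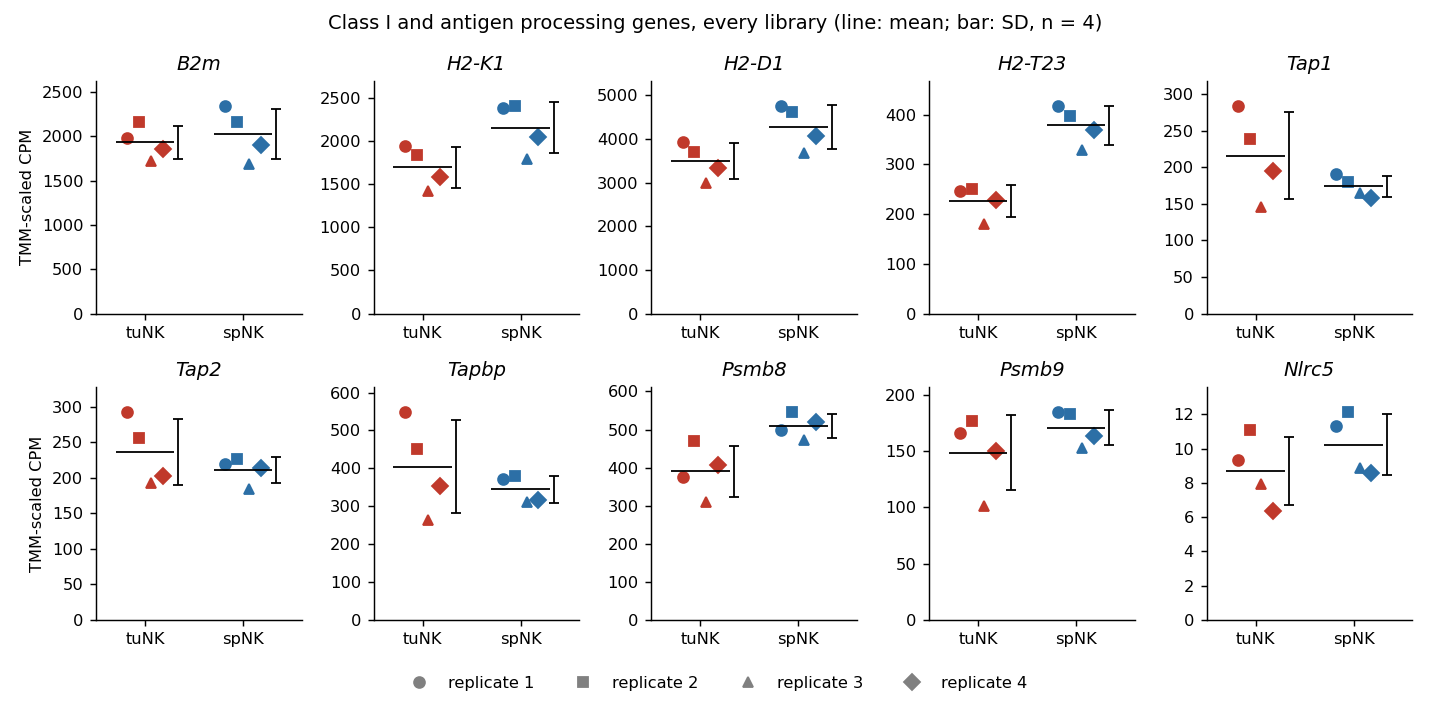
TMM-scaled CPM (y axis, from 0, own scale per panel) of the 10 genes in each tuNK (red) and spNK (blue) library, with symbols for replicates 1 to 4, a line at the mean and a bar of 1 SD. H2-T23 and Psmb8 are the panels in which the tuNK and spNK points do not overlap, and tuNK 3 (red triangle) is the lowest tuNK library in 9 of the 10 panels.

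Ratios within a library, which library scaling cannot move, were used to ask whether heavy chains and light chain stayed in step. The TPM ratio of H2-T23 to B2m was 0.0626, 0.0589, 0.0533 and 0.0621 in tuNK 1 to 4, against 0.0903, 0.0941, 0.0985 and 0.0986 in spNK 1 to 4. The groups did not overlap, and the difference of the mean log2 ratio was -0.69 (two-sided exact permutation p = 0.0286, the smallest that 4 against 4 libraries allow). The H2-K1 ratio to B2m was 0.549, 0.472, 0.455 and 0.474 in tuNK, against 0.547, 0.614, 0.584 and 0.597 in spNK. Here tuNK 1 reached the spNK range, and the difference of -0.27 did not pass (exact permutation p = 0.0571). For H2-D1 to B2m the difference was -0.19 (exact permutation p = 0.0571), again with tuNK 1 inside the spNK range. Of 14 such ratios tested, 8 reached the smallest p. After adjustment over the 14 their adjusted p was 0.05, which is not below the threshold, so 0 of the 14 were called. With CPM in place of TPM, 10 ratios reached the smallest p and an adjusted p of 0.04 in the exact permutation test. The H2-K1 and H2-D1 ratios to B2m were among them (-0.29 and -0.24). At the smallest p the adjusted p depends only on how many of the 14 ratios reach it. The ratios to Ptprc and to Ciita, genes that were lower in tuNK, count among those 10. The step from 0.05 to 0.04 is therefore no added evidence for any single ratio.

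For the TAP transporter and tapasin, the difference between groups was within the spread of the tuNK libraries. Tap1 (ENSMUSG00000037321, chromosome 17, 34187553 to 34197225) had 284, 239, 146 and 194 CPM in tuNK 1 to 4, against 191, 180.2, 165 and 158 CPM in spNK 1 to 4. Tap2 (ENSMUSG00000024339, chromosome 17, 34203527 to 34216321) had 292, 255, 193 and 203 CPM in tuNK, against 219, 226, 184 and 214 CPM in spNK. Tapbp (ENSMUSG00000024308, chromosome 17, 33915899 to 33929292) had 548, 449.9, 265 and 352 CPM in tuNK, against 371, 379, 312 and 315 CPM in spNK. In all 3 genes tuNK 1 and tuNK 2 lay above every spNK library. In Tap1 and Tapbp, tuNK 3 lay below every spNK library. The log2 fold changes were 0.31 ± 0.18 for Tap1, 0.16 ± 0.13 for Tap2 and 0.23 ± 0.19 for Tapbp (edgeR adjusted p = 0.136, 0.300 and 0.315). Without tuNK 3, Tap1 was called higher in tuNK, by 0.45 (edgeR adjusted p = 0.0137). On TPM the means of Tap2 (85.4 ± 25.2 in tuNK, 87.5 ± 8.49 in spNK) and Tapbp (159 ± 65.7 in tuNK, 158 ± 17.4 in spNK) were nearly the same, so no direction is given for them. The Tap1 to Tap2 TPM ratio was 1.20, 1.18, 1.01 and 1.26 in tuNK, against 1.17, 0.921, 1.07 and 0.977 in spNK, with overlap (exact permutation p = 0.143).

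Of the 2 immunoproteasome subunits, Psmb8 was lower in tuNK and Psmb9 was not called. Psmb8 (ENSMUSG00000024338, chromosome 17, 34197721 to 34201454), which encodes LMP7 and replaces the constitutive subunit Psmb5, had 374, 471, 309 and 407 CPM in tuNK 1 to 4, against 498, 546, 472 and 521 CPM in spNK 1 to 4. All tuNK libraries lay below all spNK libraries, although tuNK 2 and spNK 3 were close. The log2 fold change was -0.38 ± 0.12 (edgeR adjusted p = 0.0151). Psmb9 (ENSMUSG00000096727, chromosome 17, 34181987 to 34187764), which encodes LMP2 and replaces Psmb6, had 166, 177, 101 and 149.9 CPM in tuNK, against 184, 182, 153 and 164 CPM in spNK. Its groups overlapped and its log2 fold change of -0.20 ± 0.15 did not pass (edgeR adjusted p = 0.266).

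Set against the constitutive partner that each replaces, Psmb8 and Psmb10 separated the groups and Psmb9 did not. The Psmb8 to Psmb5 TPM ratio was 1.58, 1.91, 1.13 and 1.69 in tuNK 1 to 4, against 2.67, 2.99, 2.28 and 2.76 in spNK 1 to 4, with no overlap. The log2 difference was -0.78 (exact permutation p = 0.0286, adjusted p = 0.05 over 14 ratios). Psmb5 itself was higher in tuNK, at 191 ± 13.5 CPM in tuNK and 142 ± 6.91 CPM in spNK, so both parts of the ratio moved. Psmb5 shares 46.8% of its read-length stretches with other genes' transcripts and its count is uncertain for that reason. For Psmb10, a further immunosubunit, over its partner Psmb7, the ratio was 0.729, 0.681, 0.443 and 0.573 in tuNK, against 1.09, 1.18, 0.876 and 0.942 in spNK. That log2 difference of -0.77 (exact permutation p = 0.0286) came with a higher Psmb7 in tuNK (292 ± 18.8 CPM in tuNK, 179 ± 13.1 CPM in spNK), while Psmb10 was not called (213 ± 37.2 CPM in tuNK, 221 ± 11.6 CPM in spNK). Psmb9 to Psmb6 was 0.685, 0.674, 0.355 and 0.542 in tuNK, against 0.749, 0.721, 0.491 and 0.589 in spNK. Those ranges overlapped (difference -0.20, exact permutation p = 0.514). Mesenchymal marker RNA was higher in every tuNK library, and its part in these ratios was not tested.

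**Figure D3:**
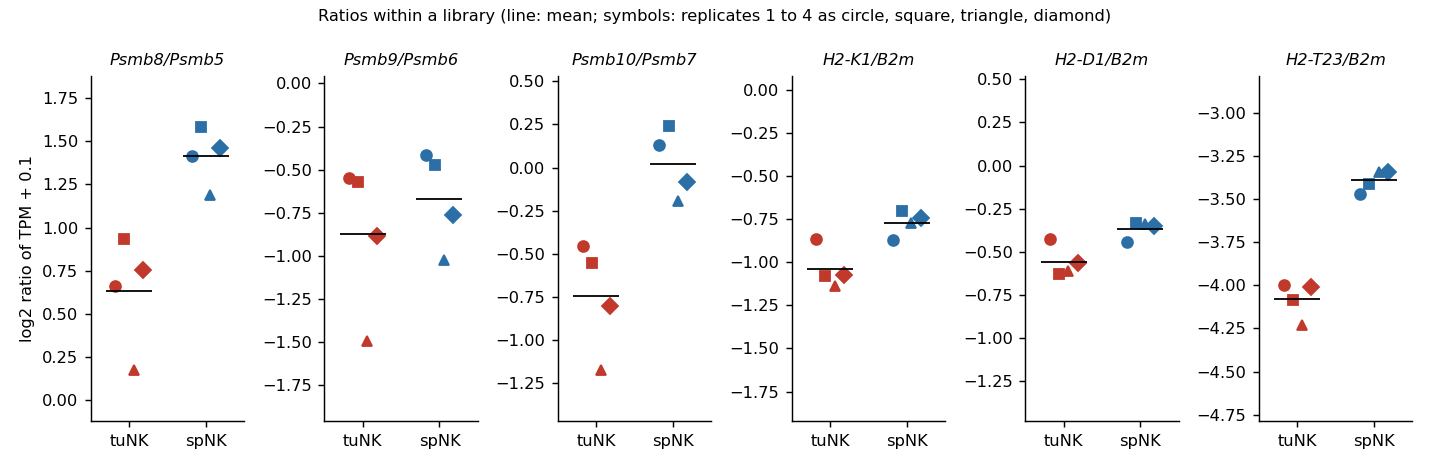
Log2 ratio of TPM + 0.1 (y axis) within each tuNK (red) and spNK (blue) library for 6 gene pairs, with a line at the mean and the 4 replicates as separate symbols. Psmb8/Psmb5, Psmb10/Psmb7 and H2-T23/B2m separate the groups, with mean differences of -0.78, -0.77 and -0.69, and the other 3 pairs overlap.

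Nlrc5, the class I transactivator, was the least abundant of the 10 genes. Nlrc5 (ENSMUSG00000074151, chromosome 8, 94434356 to 94527272) had 9.34, 11.1, 7.95 and 6.38 CPM in tuNK 1 to 4, against 11.3, 12.1, 8.88 and 8.61 CPM in spNK 1 to 4. The groups overlapped, and the log2 fold change of -0.24 ± 0.21 did not pass (edgeR adjusted p = 0.332). These levels rest on 250 to 476 counts per library in tuNK and 380 to 684 in spNK. On TPM the order of libraries was another one, with 1.46, 2.77, 3.64 and 0.832 in tuNK, against 2.56, 2.30, 1.43 and 2.37 in spNK, so tuNK 3 was the highest tuNK library on TPM but not on CPM. Why counts and TPM disagree for this gene was not tested. Ciita, the related activator of MHC class II, stood at 0.322 ± 0.167 CPM in tuNK and 2.26 ± 0.879 CPM in spNK (log2 fold change -2.80, edgeR adjusted p = 7.75e-04), beside dendritic and B cell markers that were lower in tuNK as well. The Nlrc5 to Ciita ratio was 1.71 log2 units higher in tuNK by TPM and 2.24 by CPM (exact permutation p = 0.0286 for each). In tuNK 1 to 4 Ciita rested on 18, 20, 6 and 8 counts. Its TPM there, 0.0263 to 0.0972, lay below the offset of 0.1, so the size of the TPM ratio depended on the offset. With an offset of 1 the difference was 0.42 (exact permutation adjusted p = 0.338). Against Ptprc, Nlrc5 was 1.89 log2 units higher in tuNK by TPM and 1.55 by CPM. By TPM the values were 1.74 for B2m, 1.47 for H2-K1 and 1.55 for H2-D1. The groups did not overlap in any of these 4 ratios. Ptprc itself fell by 1.79 on the log2 scale, while the median of all genes was 0.02. A gene level on the TMM scale would therefore also rise against Ptprc, and these ratios are no mark of class I genes.

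Order among the members was nearly the same in both groups when read per transcript length. By mean TPM in tuNK it ran B2m (2773), H2-D1 (1895), H2-K1 (1362), Psmb8 (419), H2-T23 (165), Tapbp (159), Psmb9 (139.6), Tap1 (99.7), Tap2 (85.4) and Nlrc5 (2.18). In spNK the means were 3434 for B2m, 2658 for H2-D1, 2006 for H2-K1, 630.4 for Psmb8, 326 for H2-T23, 189 for Psmb9, 158 for Tapbp, 90.3 for Tap1, 87.5 for Tap2 and 2.16 for Nlrc5. H2-T23, Tapbp and Psmb9 lay within 1 SD of each other in tuNK, and Tap1 and Tap2 did so in both groups. Tapbp and Psmb9 changed places between the groups. The summed TPM of the 10 was 8712, 7734, 5597 and 6364 in tuNK 1 to 4, against 10834, 10256, 7981 and 9254 in spNK 1 to 4, so tuNK 1 exceeded the lowest spNK library.

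For 9 of the 10 genes, the ratio of the highest to the lowest library was larger in tuNK than in spNK. The same share over all genes is not given here. That ratio was 2.07 in tuNK and 1.21 in spNK for Tapbp. For Tap1 it was 1.94 in tuNK and 1.21 in spNK, and for Psmb9 1.74 in tuNK and 1.21 in spNK. For H2-K1 (1.37 in tuNK, 1.34 in spNK) and H2-D1 (1.31 in tuNK, 1.29 in spNK) the groups were nearly alike. B2m went the other way, with 1.25 in tuNK and 1.38 in spNK. By the SD of CPM, not divided by the mean, B2m, H2-K1, H2-D1 and H2-T23 spread less in tuNK and the other genes more. These are descriptions of 4 libraries each, and the difference in spread was not tested. The library tuNK 3 was lowest in tuNK for 9 of the 10 genes (tuNK 4 for the other), and tuNK 1 and tuNK 2 were highest for 5 each. Irf1, an interferon-induced activator of class I promoters, was also highest in tuNK 1 and lowest in tuNK 3, and had 164, 106, 52.3 and 84.6 CPM in tuNK, against 283, 243, 198 and 252 CPM in spNK. Irf1 fell by 1.26 on the log2 scale (edgeR adjusted p = 0.00512) and was named after its values were seen. On the leukocyte scale its direction turned, to 0.48 higher in tuNK, and it was not called (edgeR adjusted p = 0.145). Ptprc was lowest in tuNK 3 and in spNK 3 too, so a low value there is not particular to class I or interferon genes. In spNK, spNK 1 and spNK 2 were highest for 5 genes each, and spNK 3 was lowest for 8 of the 10 genes and spNK 4 for 2.

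The mesenchymal marker sum was 4896, 3289, 3240 and 3618 CPM in tuNK 1 to 4, highest in tuNK 1, where Tap1, Tap2 and Tapbp were also highest. The leukocyte genes took 0.530, 0.626, 0.462 and 0.581% of counts in the same libraries, lowest in tuNK 3. Their part in the spread of the class I genes was not tested. When spNK 3 and tuNK 1 were left out together, the same number of members, 4, was called lower, and the Tap2 and Tapbp values were -0.03 and -0.01.

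On the leukocyte scale the 2 groups did not overlap for any of the 10 genes. The share of all genes without overlap on this scale is not given here. Since 78.8% of all genes were called higher there, with a median of 1.75, the separation is no mark of these 10. B2m had 3932, 3442, 3605 and 3090.3 leukocyte-scaled CPM in tuNK 1 to 4, against 1176, 1096, 1083 and 1073 in spNK 1 to 4. H2-T23 had 488, 398, 378 and 378 in tuNK, against 209.5, 202, 209.9 and 208 in spNK. Tap1 had 562, 379.8, 305 and 323 in tuNK, against 95.9, 91.4, 106 and 89.0 in spNK. The spNK libraries lay close together on this scale, and tuNK 1 stood highest of all for 9 of the 10 genes, Psmb8 being the exception. The log2 differences were 1.67 ± 0.13 for B2m, 0.99 ± 0.13 for H2-T23 and 2.04 ± 0.20 for Tap1 (SE), and the largest edgeR adjusted p of the 10 genes was 4.32e-05, for Nlrc5. This scale divides by leukocyte RNA alone, so any class I RNA of other cells in a tuNK library counts toward its value, and how much that was is not shown by these tables.

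By Euclidean distance between centred log2 CPM over the 8 libraries, a measure of likeness with no test, the nearest of 12406 genes to B2m were Naip2 (0.228), Ids (0.234) and Sppl2a (0.237). The nearest to Nlrc5 were Trit1 (0.407), Sugp1 (0.411) and Klhl25 (0.429). None of these 6 genes was called between groups. Among the members, H2-D1 (0.377) and H2-K1 (0.457) lay nearest to B2m, and H2-T23 (0.994) lay farthest from it.

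Beyond the 10 genes, 6 lists of related genes were counted in the same fit. Their counts are to be read against all genes tested, of which 35.6% were higher and 34% lower on the TMM scale, and 78.8% higher and 6.1% lower on the leukocyte scale, and no list was tested against that background. Of 18 tested from 19 listed other heavy chains of class I and its relatives, 5 were higher in tuNK, 9 were lower and 4 did not pass, with a median log2 fold change of -0.32, while on the leukocyte scale 13 were higher and 2 lower. Of the genes named in the following as fallen, Cd1d1, Jak1 and Tyk2 were also called lower on the leukocyte scale. There Ganab (0.97), Lnpep (0.78), Creb1 (0.45) and Daxx (0.90) were called higher instead, and Mr1 and Irf2 were not called. Cd1d1, which presents lipids to NKT cells, fell by 2.79 on the log2 scale (4.51 ± 1.80 CPM in tuNK, 31.3 ± 1.88 CPM in spNK; edgeR adjusted p = 2.66e-06). Mr1, which presents vitamin B metabolites to MAIT cells, fell by 1.77 (6.17 ± 0.939 CPM in tuNK, 21.0 ± 4.14 CPM in spNK; edgeR adjusted p = 9.76e-06). On the leukocyte scale Cd1d1 stood at -1.11 and Mr1 at -0.04. H2-T10, a nonclassical chain recognised by γδ T cells, rose by 0.92 (51.2 ± 3.81 CPM in tuNK, 27.1 ± 2.40 CPM in spNK; edgeR adjusted p = 1.29e-05). H2-T10 shares 24.7% of its read-length stretches with H2-T22, so the counts of these 2 genes may be divided between them. Fcgrt, the neonatal Fc receptor chain that pairs with B2m, rose by 2.98 (28.7 ± 4.51 CPM in tuNK, 3.63 ± 1.98 CPM in spNK; edgeR adjusted p = 4.66e-05).

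Of 11 peptide loading and folding genes of the endoplasmic reticulum, 6 rose in tuNK, 3 fell and 2 did not pass (median 0.23), beside 35.6% higher and 34% lower over all genes. All 11 were higher on the leukocyte scale, beside 78.8% of all genes. Calr, the chaperone of the loading complex, had 1914 ± 106 CPM in tuNK and 1036 ± 57.9 CPM in spNK (log2 fold change 0.89, edgeR adjusted p = 4.64e-06). Hspa5 (BiP) rose by 1.16, Sec61a1 of the translocation channel rose by 0.88, and Ganab, a glucosidase of glycoprotein folding, fell by 0.75. Calr, Hspa5 and Sec61a1 serve secreted and membrane proteins in general.

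Of 20 proteasome core and regulator genes, 12 rose, 1 fell and 7 did not pass (median 0.33), beside 35.6% higher and 34% lower over all genes. All 20 were higher on the leukocyte scale, beside 78.8% of all genes. Psma7 and Psma5, subunits of the outer rings, rose by 0.97 and 0.86, and Pomp, the assembly chaperone of the core, rose by 0.70. Psmb7, the constitutive partner of Psmb10, rose by 0.71. Of the activator subunits Psme1 and Psme3, neither was called (0.18 and -0.04; edgeR adjusted p = 0.109 and 0.732).

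Cytosolic peptidases that trim or destroy peptides showed 4 higher, 3 lower and 2 not called of 9 tested (median -0.08), near the 35.6% higher and 34% lower over all genes. All 9 were higher on the leukocyte scale, beside 78.8% of all genes. Lap3, the leucine aminopeptidase, rose by 1.87 (207 ± 16.6 CPM in tuNK, 56.7 ± 14.8 CPM in spNK; edgeR adjusted p = 3.64e-06). Thop1 rose by 1.42 and Dpp9 by 0.74, while Lnpep, an aminopeptidase of endosomes, fell by 0.94. These 4 had the smallest adjusted p of their list.

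Of 31 regulators and interferon signalling genes, 4 rose, 18 fell and 9 did not pass (median -0.57), beside 35.6% higher and 34% lower over all genes. Scaled to leukocyte genes, 26 were called higher and 2 lower, beside 78.8% and 6.1% of all genes. The kinases Jak1 (245 ± 37.0 CPM in tuNK, 1131 ± 166 CPM in spNK) and Tyk2 (35.4 ± 3.83 CPM in tuNK, 162 ± 16.7 CPM in spNK) fell by 2.21 and 2.19 on the log2 scale (edgeR adjusted p = 2.79e-07 and 4.95e-08). On the leukocyte scale they stood at -0.48 and -0.47. Irf2 fell by 1.45 and Creb1, a factor that binds CRE sites of class I promoters, fell by 1.27. The NK cell markers, all lower in tuNK, moved in the same direction as Jak1 and Tyk2, and their part was not tested.

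Genes that lie beside class I in the MHC and have other functions served as a positional comparison: of 16, 7 rose, 2 fell and 7 did not pass (median 0.20), beside 35.6% higher and 34% lower over all genes. All 16 were higher on the leukocyte scale, beside 78.8% of all genes. Tubb5 rose by 1.26, Gnl1 by 0.71 and Ddr1, a collagen receptor, by 4.54, while Daxx fell by 0.83. The 8 class I and processing genes on chromosome 17, with 4 lower and 0 higher, were not tested against this list.

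**Figure D4:**
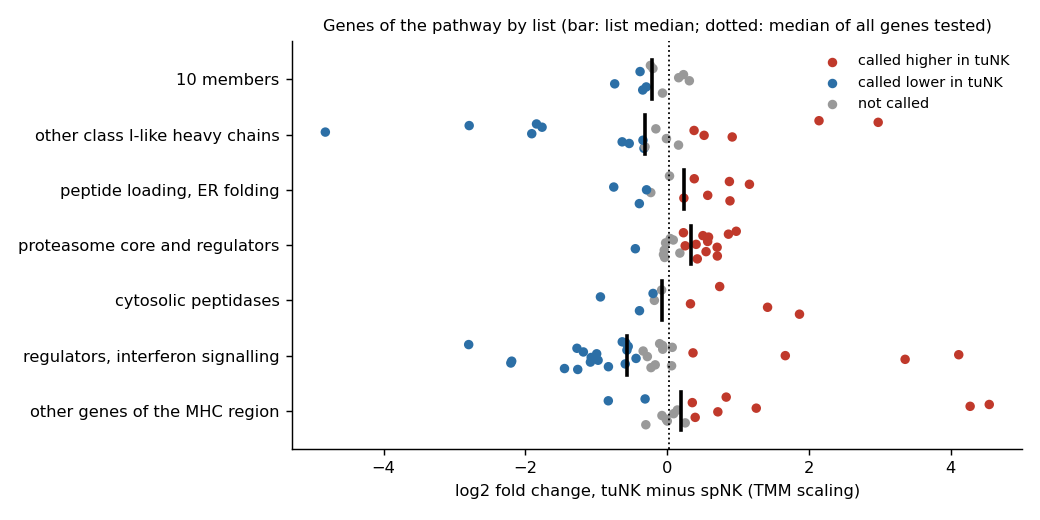
Log2 fold change (tuNK minus spNK, TMM scaling, x axis) of every tested gene of the 10 and of 6 lists, coloured by call, with a bar at each list's median and a dotted line at the median of all genes tested (0.02). The 10 class I and processing genes span -0.74 to 0.31, a narrower range than the other lists, whose medians run from -0.57 for regulators to 0.33 for the proteasome.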

How the data were processed

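RNA-seq was carried out on polyadenylated RNA with directional libraries, per the labels' protocols, which do not name the sort markers. Per the submitters' processing notes, FastQC 0.11.9, STAR and Salmon were used with GRCm38 (mm10). Versions of STAR and Salmon, the annotation and the strand of counting were not given in the sources used here, so a gene and its antisense partner may share reads. The deposited estimated counts (expected counts per gene, not normalized) were not whole in 7.9 to 8.82% of values per library and were rounded. The deposited TPM values summed to 1000000 per library. There were 0 columns without a sample.

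Genes passing filterByExpr were scaled by TMM and tested with edgeR 4.0.16 in R 4.3.3 (quasi-likelihood F test, robust), with Benjamini-Hochberg adjustment over all 14006 genes and a threshold of 0.05. CPM are TMM-scaled counts per 1000000. SE is the absolute log2 fold change over the square root of F. Ratios used log2(TPM + 0.1) and a two-sided exact permutation test over 70 assignments. Read-length stretches are 60-base words of GENCODE M21 transcripts, which also give gene positions. Alternatives used DESeq2 1.42.0 and limma 3.58.1, other scalings and filters, the replicate block and leaving out libraries. The code of the tests was run on simulated data. There few genes changed, in both directions, whereas most genes differed here. That run therefore does not bear on whether TMM scaling suits these data. Members, lists and tests were chosen with earlier results of these data known. All 10 members were named, with up to 4 called genes of smallest adjusted p per list, every ratio gene, and the 3 genes nearest to B2m and to Nlrc5. Nrdc, of the peptidase list, was not matched. Results of a few genes are not reported here.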

Additional observations from a re-analysis of the deposited data

Results flagged for a closer look

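In groups of 4 libraries, Dixon's gap ratio was computed for 48 sets of values, and chance alone puts about 1 in 20 above its 95% critical value. The H2-D1 to Ptprc log2 TPM ratio in tuNK had a gap ratio of 0.832, because tuNK 3 stood at 4.45 and the other 3 libraries between 4.14 and 4.20. The Nlrc5 to Ciita log2 TPM ratio in spNK had a gap ratio of 0.845, because spNK 3 stood at 0.82 and the other 3 libraries between 2.20 and 2.45. Ciita was at 3.55 CPM in spNK 3 and at 1.56 to 1.99 CPM in the other spNK libraries.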

How the results depend on the processing

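Scaling to leukocyte-expressed genes moved the calls most: 11043 genes were then called higher and 854 lower, 10 members were called, 10 of them higher and 0 lower, and the log2 fold changes of B2m (1.67), H2-K1 (1.39), H2-D1 (1.44), H2-T23 (0.99), Psmb8 (1.33), Psmb9 (1.51) and Nlrc5 (1.50) took the opposite sign. That scaling shifted the median of all genes by 1.73, scaling by library totals alone shifted it by -0.17, and TPM shifted it by -0.16 to -0.21. On log2 TPM with limma-trend, Tap2 and Tapbp turned to -0.0734 and -0.0731 with an offset of 1 (the same without a filter) and to -0.0746 and -0.0740 with an offset of 0.1. Leaving out spNK 3 and tuNK 1 together gave -0.0257 for Tap2 and -0.00635 for Tapbp. None of these Tap2 and Tapbp values passed the test, and the cause was not tested. Leaving out 1 library at a time, 2 to 4 members were called, 2 to 4 lower and 0 to 1 higher, with 9451 to 9907 genes called in all. H2-T23 and Psmb8 were called lower in every setting run apart from leukocyte scaling. With DESeq2 size factors H2-D1 was lost (edgeR adjusted p = 0.0505, range over the alternatives apart from leukocyte scaling 0.00374 to 0.117), and on filtered TPM Psmb9 was called lower too with either offset (limma adjusted p = 0.0474 and 0.0473), but not without the filter (0.0944). Of the ratios, 0 were called on TPM and 10 on CPM, a step set by how many reached the smallest p. Without 1 library the exact test cannot go below 0.0571. Same-numbered libraries had deviations that correlated at -0.008 to 0.042 across genes. The best partner was the library of the same number for tuNK 2, tuNK 3 and tuNK 4, and spNK 3 for tuNK 1. Correlations this weak over all genes cannot decide whether the numbers pair the samples. With the replicate block 4 members and 9555 genes were called. Nlrc5, at 250 to 684 counts per library, is the member that depth limits most.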
